A study of Schmidtea mediterranea with 24 samples.

Results

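*hox3a* RNAi and *lox5b* RNAi planarians were compared directly, without control animals in the model. The comparison used 8 of the 24 RNA-seq libraries of the series, 4 from *hox3a* RNAi and 4 from *lox5b* RNAi, chosen by the label of the RNAi target. Both groups were whole asexual adults of *Schmidtea mediterranea* from the clonal strain CIW4, fed purified double-stranded RNA (dsRNA) of 1 Hox gene 7 times and then starved for 5 days. Each library pooled 3 animals, so the p-values below measure the spread between pools of 3 animals of 1 clonal strain. Control RNAi animals, fed *unc-22* dsRNA on the same schedule, and the *hox3b* and *hox1* RNAi groups, 4 libraries each, are given only beside these results. RNA from whole animals gives 1 value for all cell types together. Of the 22197 genes in the table, 15115 reached 0.5 TPM (transcripts per 1000000 transcripts) in at least 4 of the 8 libraries and were tested.

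Hox genes encode homeodomain transcription factors that give regions along the head to tail axis their identity. In an asexual planarian the adult reproduces by fission, in which the tail is anchored to the substrate, the body stretches and tears, and both pieces regenerate. RNA interference lowers the transcript that matches the dsRNA. The question is how the transcripts of whole animals differ when one Hox gene of the fission program is silenced rather than another. The dsRNA of each target is set by the primer pair that amplified it, printed here without the vector bases that all pairs share, because these bases define which transcript each group was treated against. No part is in capitals.
hox3a forward: ttacaggtggatgatagacacaa
hox3a reverse: tgacaccagaaaattgatagcag
lox5b forward: actcaaaatctgaatttgccgta
lox5b reverse: tgatttgcctttccgttaaagat
The transcripts of *hox3a* and *lox5b* have no gene ID among the annotations at hand, and how far each was silenced was not analysed here.

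Values in TPM are per transcript length and add up to 1000000 in each library, and they carry no record of the read depth. Genes above 0 TPM numbered 17322 to 17505 in the *hox3a* RNAi libraries and 16685 to 17109 in the *lox5b* RNAi libraries. Pearson's r across genes was 0.985 to 0.992 between libraries of 1 group and 0.965 to 0.984 between libraries of the 2 groups. The first principal component held 49.2% of the variance and separated the groups. The second held 15.7%, and on it *hox3a* replicates 1 and 2 lay with *lox5b* replicates 3 and 4, opposite the other 4 libraries. Over all tested genes the log2 fold change had a median of 0.01, and rescaling TPM by the median of ratios left it at 0.01, so the scale of TPM hardly shifts this comparison.

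A gene was called when it differed by at least 1.5-fold at an adjusted p under 0.05 (limma on log2(TPM + 0.5), Benjamini-Hochberg). By this rule 861 genes were called, 5.7% of those tested. Of these, 486 were higher in *hox3a* RNAi, or 3.22% of genes tested, and 375 were lower, or 2.48%. At any fold change 2474 genes had an adjusted p under 0.05, and there the balance was the other way, with 1026 higher and 1448 lower. The 4 libraries of one group lay entirely on 1 side of the 4 of the other for 3354 tested genes, a background of 22.2%, and for 790 of the 861 calls.

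The sizes of the differences were unequal in the 2 directions. Of the calls, 188 were at least 2-fold higher in *hox3a* RNAi and 46 at least 2-fold lower. At least 4-fold higher were 43 genes, and 0 were 4-fold lower. At least 8-fold higher were 17 genes, and 7 of these passed 32-fold. Some of these genes have neighbouring numbers, described below, and 1 such run held 6 of the 43 and another 9. Of the 17, the same runs held 6 and 2. These are thus counts of gene models, and whether neighbouring models share reads was not tested. The called log2 fold changes ran from -1.77 to 6.23. When any 1 of the 8 libraries was left out, the number at least 4-fold higher stayed between 38 and 47. A mean of at least 100 TPM was reached by 1584 of the 15115 tested genes. Of these 1584, 83 were called higher, or 17.1% of the higher calls, and 84 lower, or 22.4% of the lower calls. None of the tested genes was at 0 in all libraries of either group. The *lox5b* mean was under 0.5 TPM in 30 of the higher calls, and the *hox3a* mean was under 0.5 TPM in 8 of the lower calls. A gene under 0.5 TPM in every library of one group passed the filter through the other group alone. Its adjusted p is then not independent of the filter, and such genes stay in all counts of calls here. Of the 861 calls, 785 were kept with a filter at a mean of 2 TPM.

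**Figure D1:**
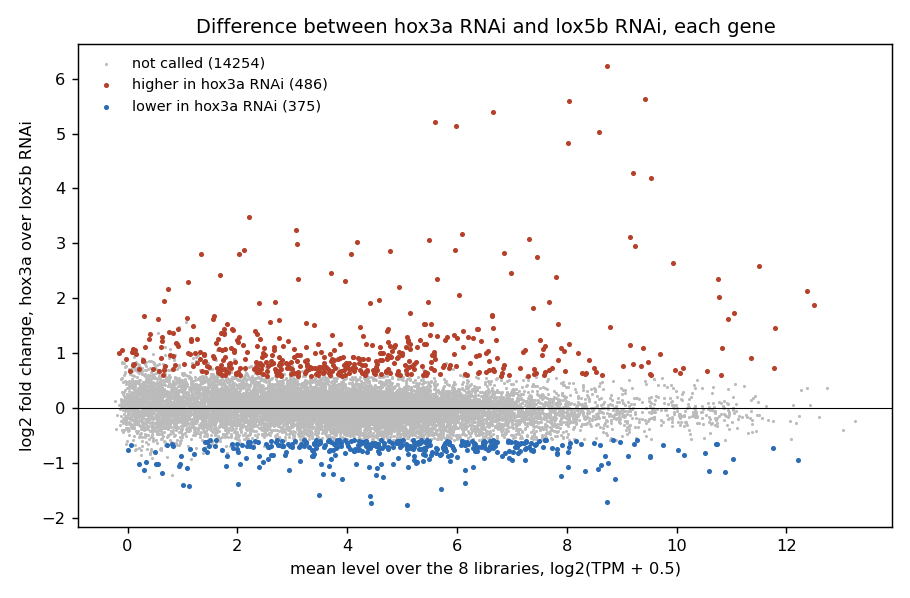
Each point is 1 of the 15115 tested genes, with its mean level over the 8 libraries on the x axis (log2(TPM + 0.5)) and its log2 fold change, *hox3a* over *lox5b* RNAi, on the y axis. Called genes are red where higher (486) and blue where lower (375) in *hox3a* RNAi, and the red points reach 6.23 while the blue ones end at -1.77.

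The largest differences were in genes without a product name. SMESG000043423.1 had 693, 636, 623 and 1405 TPM in *hox3a* RNAi, against 23.6, 9.65, 4.99 and 8.47 TPM in *lox5b* RNAi (log2 fold change 6.23, SE 0.39, adjusted p = 9.81e-06, limma). SMESG000043411.1 had 866, 1040.2, 1339 and 2101 TPM in *hox3a* RNAi, against 55.4, 17.6, 15.4 and 26.2 TPM in *lox5b* RNAi (log2 fold change 5.62, SE 0.37, adjusted p = 1.02e-05, limma). In both genes the lowest *hox3a* library was more than 10 times the highest *lox5b* library, and *hox3a* replicate 4 was the highest of all. SMESG000050244.1 had 144, 182, 163 and 298 TPM in *hox3a* RNAi, against 3.62, 4.17, 3.53 and 4.92 TPM in *lox5b* RNAi (log2 fold change 5.39, SE 0.19, adjusted p = 2.05e-07, limma). SMESG000055624.1 had 50.8, 63.2, 73.5 and 188 TPM in *hox3a* RNAi, against 3.16, 1.32, 1.74 and 1.07 TPM in *lox5b* RNAi (log2 fold change 5.22, SE 0.37, adjusted p = 1.41e-05, limma). Control libraries held 6.17, 4.73, 6.13 and 4.002 TPM of SMESG000055624.1, between the groups and without overlap with either. Among the 43 genes at least 4-fold higher, which may not be independent, *hox3a* replicate 4 was the highest *hox3a* library in 35. Without that library the log2 fold change of SMESG000043423.1 was 5.96 and that of SMESG000055624.1 4.82, so the differences did not rest on it.

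**Figure D2:**
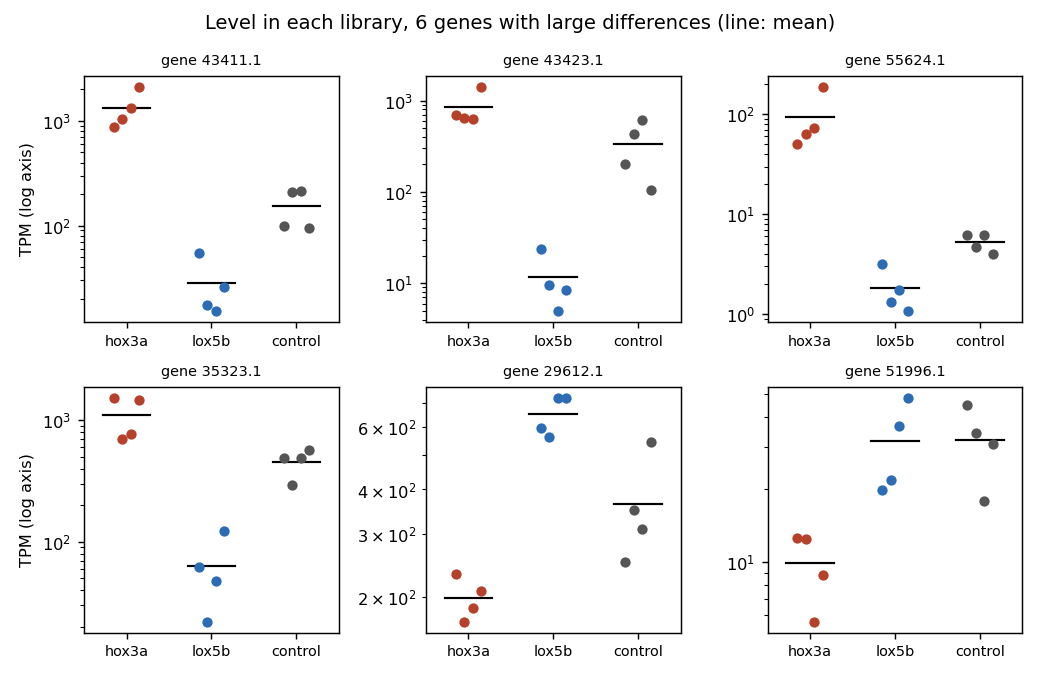
Level in every library (TPM, log axis) of 6 genes with large differences, in *hox3a* RNAi (red), *lox5b* RNAi (blue) and control RNAi (grey), with a line at each mean. The first 4 genes are higher in every *hox3a* library than in any *lox5b* library, and the last 2, SMESG000029612.1 and SMESG000051996.1, are lower.

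Several of these genes carry neighbouring numbers in their IDs. These runs were noticed after the values were seen and were not tested, positions were not used, and whether neighbouring models are near copies that share reads was not tested. When called genes were joined wherever their numbers were at most 30 apart, 13 runs held at least 5 called genes, 5 of them with higher calls alone and 8 with calls in both directions, and 4 of the 13 are described. The run with most calls, from SMESG000043362.1 to SMESG000043474.1, held 44 tested genes, of which 6 were called higher and 6 lower. The 6 higher genes stand together from SMESG000043388.1 to SMESG000043423.1, a stretch of 15 tested genes, with log2 fold changes of 4.83 to 6.23, and the other 9 of that stretch lay between -0.50 and 0.31. The 6 lower genes lie outside it, 2 before and 4 after, with log2 fold changes of -1.26 to -0.71. SMESG000043393.1, which has the third largest difference of all called genes, had 403, 392, 439 and 806 TPM in *hox3a* RNAi, against 28.8, 4.15, 7.81 and 8.42 TPM in *lox5b* RNAi (log2 fold change 5.60, SE 0.45, adjusted p = 3.54e-05, limma). SMESG000043419.1 and SMESG000043420.1, which stand between the called genes, averaged 613 ± 50.4 and 569 ± 39.4 TPM in *hox3a* RNAi, against 586 ± 73.9 and 533 ± 82.7 TPM in *lox5b* RNAi (SD, n = 4), with log2 fold changes of 0.07 and 0.11 that did not pass the test. The 6 higher genes of the run summed to 2978 to 6567 TPM in the *hox3a* libraries and to 50.9 to 206 TPM in the *lox5b* libraries. In control libraries the sum was 366 to 1718 TPM, below every *hox3a* library and above every *lox5b* library. The control libraries differed among themselves, and SMESG000043423.1 had 204, 429, 608 and 104 TPM in them.

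A second run was more abundant. Of the 13 tested genes from SMESG000035312.1 to SMESG000035335.1, 11 were called, all higher in *hox3a* RNAi, by 0.60 to 4.28 on the log2 scale. Together the 11 genes made up 1.81 to 2.59% of all TPM in the *hox3a* libraries, 0.373 to 0.818% in the *lox5b* libraries and 1.30 to 1.70% in the control libraries. SMESG000035335.1, the most abundant of them, had 10511, 7844, 9189 and 8798 TPM in *hox3a* RNAi, against 2864, 1635, 2315 and 3327 TPM in *lox5b* RNAi (log2 fold change 1.88, SE 0.18, adjusted p = 0.000126, limma). SMESG000035323.1 had the largest difference of the run, with 1526, 693, 761 and 1463 TPM in *hox3a* RNAi, against 61.8, 22.1, 47.3 and 123 TPM in *lox5b* RNAi (log2 fold change 4.28, SE 0.44, adjusted p = 0.000156, limma). In this run replicate 4 was not alone at the top, and *hox3a* replicate 1 was the highest library for SMESG000035323.1 and SMESG000035335.1. SMESG000035312.1, the smallest difference of the run at 0.60 (SE 0.15, adjusted p = 0.0213, limma), was no longer called without *hox3a* replicate 1 (log2 fold change 0.51, adjusted p = 0.0549), without *lox5b* replicate 1 (0.61, adjusted p = 0.0515) or without *lox5b* replicate 2 (0.45, adjusted p = 0.0296), with an adjusted p of 0.00169 to 0.0549 over its 17 alternatives.

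**Figure D3:**
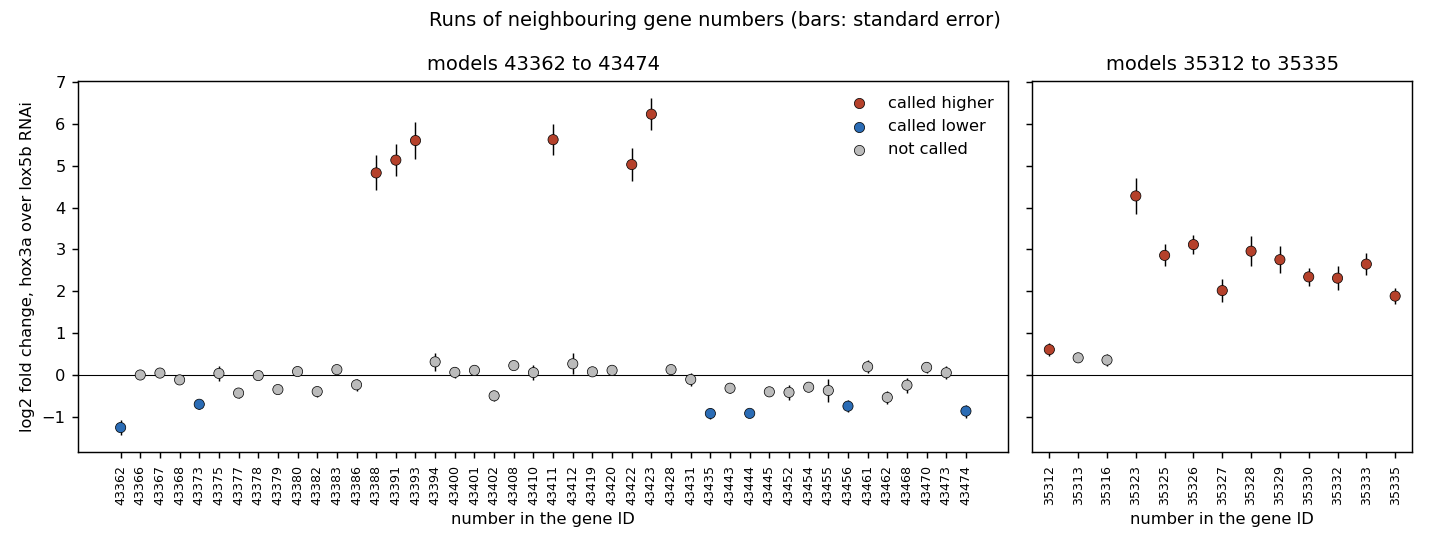
Log2 fold change, *hox3a* over *lox5b* RNAi, with its standard error, for each tested gene of 2 runs of neighbouring gene numbers, in order of number on the x axis. In the left run 6 genes called higher (red) lie at 4.83 to 6.23, 6 called lower (blue) at -1.26 to -0.71 and 32 that were not called (grey) at -0.54 to 0.31, and in the right run 11 of 13 genes are called higher.

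In a further run all 7 tested genes from SMESG000037144.1 to SMESG000037155.1 were called higher, by 0.87 to 2.46. This run was picked after its values were seen, and the other runs with 7 calls, not described, had calls in both directions. Called genes set the ends of every run, so a high share of calls is in part built in. SMESG000037144.1 had 19.3, 21.3, 16.9 and 29.3 TPM in *hox3a* RNAi, against 2.89, 3.22, 3.59 and 4.199 TPM in *lox5b* RNAi (log2 fold change 2.46, SE 0.17, adjusted p = 1.05e-05, limma) without overlap between the groups. One of the 7, SMESG000037147.1 (log2 fold change 1.08, adjusted p = 0.0233, limma), lost its call without *hox3a* replicate 1 (adjusted p = 0.0621) or *hox3a* replicate 2 (adjusted p = 0.0622), with 0.00462 to 0.0622 over its 17 alternatives. Of the 24 tested genes from SMESG000016756.1 to SMESG000016810.1, 9 were called, and 8 of the 9 were lower in *hox3a* RNAi. The lowest of these, SMESG000016778.1, averaged 26.98 ± 2.29 TPM in *hox3a* RNAi and 76.6 ± 15.8 TPM in *lox5b* RNAi (SD, n = 4, log2 fold change -1.47, SE 0.13, adjusted p = 7.2e-05, limma). SMESG000016810.1, the most abundant of the 9, averaged 298 ± 30.8 TPM in *hox3a* RNAi and 479 ± 58.3 TPM in *lox5b* RNAi (SD, n = 4). Calls at the edge of the cutoff rested on single libraries here too. SMESG000016779.1 (-0.64) was not called without *lox5b* replicate 2 (-0.48), SMESG000016788.1 (-1.02) not without *hox3a* replicate 2 or *lox5b* replicate 1 (-1.06 and -0.80), and SMESG000016756.1, the 1 that was higher (0.62), not without *lox5b* replicate 2 (0.58).

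The largest differences in the other direction were also in genes without a product name. SMESG000029594.1 had 12.9, 11.8, 17.2 and 18.01 TPM in *hox3a* RNAi, against 49.96, 64.4, 52.04 and 41.4 TPM in *lox5b* RNAi (log2 fold change -1.77, SE 0.16, adjusted p = 7.32e-05, limma). SMESG000029612.1 was the most abundant of the 5 lowest, with 231, 170.3, 186 and 207 TPM in *hox3a* RNAi, against 596, 562, 721 and 724 TPM in *lox5b* RNAi (log2 fold change -1.71, SE 0.11, adjusted p = 9.81e-06, limma). The highest *hox3a* library of SMESG000029612.1 was less than 0.5 of its lowest *lox5b* library. SMESG000038731.1 had 7.33, 9.14, 10.6 and 9.85 TPM in *hox3a* RNAi, against 29.5, 50.1, 27.01 and 25.1 TPM in *lox5b* RNAi (log2 fold change -1.74, SE 0.20, adjusted p = 0.00031, limma), and SMESG000061762.1 had 4.45, 3.54, 6.86 and 6.097 TPM in *hox3a* RNAi, against 15.9, 18.8, 17.3 and 13.3 TPM in *lox5b* RNAi (log2 fold change -1.58, SE 0.18, adjusted p = 0.000373, limma). SMESG000051996.1 had 12.5, 12.4, 5.62 and 8.84 TPM in *hox3a* RNAi, against 19.9, 21.8, 36.9 and 48.3 TPM in *lox5b* RNAi (log2 fold change -1.61, SE 0.30, adjusted p = 0.00541, limma), with 45.1, 34.3, 17.8 and 30.9 TPM in control RNAi. That gene was the 1 of the 5 whose control mean (32.02 TPM) matched *lox5b* RNAi more closely than *hox3a* RNAi.

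The level in control RNAi was set beside the called genes. Of the 486 genes higher in *hox3a* RNAi, all 4 control libraries lay above all 4 *lox5b* libraries in 390 (80.2%, against 33.2% of all tested genes). The control libraries also lay above all *hox3a* libraries in 108 of the 486 (22.2%, against 25.4% of all tested genes), and below all *hox3a* libraries in 100 (20.6%, against 2.58%). Of the 375 genes lower in *hox3a* RNAi, the control libraries lay below all *lox5b* libraries in 304 (81.1%, against 12.6% of all tested genes) and above all *hox3a* libraries in 42 (11.2%, against 25.4%). In most called genes of either direction *lox5b* RNAi stood apart from control. The largest differences had another order. Of the 43 genes at least 4-fold higher, the control libraries lay below all *hox3a* libraries in 38 and above all *lox5b* libraries in 22. These 43 may not be independent of each other. Control libraries carry a larger scale factor by the median of ratios (1.054 to 1.103) than *hox3a* (0.943 to 0.996) and *lox5b* libraries (0.925 to 0.983). After rescaling, the control libraries lay above all *lox5b* libraries in 367 of the higher genes (75.5%, against 21.4% of all tested genes) and below them in 333 of the lower genes (88.8%, against 22.2%). They lay above all *hox3a* libraries in 71 of the higher genes (14.6%, against 9.39%), a share above that of all genes where it was below it as deposited, and in 11 of the lower genes (2.93%). They lay below all *hox3a* libraries in 128 of the higher genes (26.3%, against 9.58%). Called genes were chosen by the gap between the *hox3a* and *lox5b* libraries, and these counts use the same libraries. A departure from the share of all tested genes is thus in part built in by that choice. The control libraries are also shared by every comparison with control, so these counts are a description.

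Product names were at hand for 552 of the tested genes (3.65%), as the closest protein of another species, and 22 of the higher and 7 of the lower calls had one. Glutamine synthetase, Histidine ammonia-lyase, GPI ethanolamine phosphate transferase 2, RRP40 and the Aldehyde dehydrogenase gene SMESG000001708.1 fall outside the rule for named genes and were chosen after their values were seen. Proteases and secreted venom-like proteins formed the list with most calls. Of its 13 tested members 5 were called higher and 0 lower, against 3.22% and 2.48% of all genes, and the median log2 fold change of the list was 0.38. A Venom allergen 5 (SMESG000001227.1), of the family of cysteine-rich secreted proteins first known from insect venom, had 111, 126, 111 and 138 TPM in *hox3a* RNAi, against 38.02, 36.9, 49.9 and 55.8 TPM in *lox5b* RNAi (log2 fold change 1.43, SE 0.13, adjusted p = 9.28e-05, limma). Its control libraries held 97.7, 113, 110.3 and 93.9 TPM, close to *hox3a* RNAi and above every *lox5b* library. The other 3 Venom allergen 5 genes tested were not called, with log2 fold changes of -0.11, -0.04 and 0.56.

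There were 3 tested genes that matched endothelin-converting enzymes, membrane metalloproteases that in mammals cleave peptide hormone precursors, and every one was called higher in *hox3a* RNAi. Endothelin-converting enzyme 1 (SMESG000003235.1) had 9.58, 7.98, 5.33 and 5.11 TPM in *hox3a* RNAi, against 1.41, 2.26, 3.796 and 3.22 TPM in *lox5b* RNAi (log2 fold change 1.26, SE 0.27, adjusted p = 0.00976, limma). Its control libraries, with 14.4, 13.2, 10.9 and 10.8 TPM, lay above both groups. Endothelin-converting enzyme-like 1 (SMESG000003216.1) averaged 33.9 ± 2.91 TPM in *hox3a* RNAi and 18.05 ± 2.49 TPM in *lox5b* RNAi (SD, n = 4, log2 fold change 0.90, SE 0.10, adjusted p = 0.000373, limma). The second Endothelin-converting enzyme 1 (SMESG000003230.1) was low, with 2.96, 2.38, 1.78 and 1.31 TPM in *hox3a* RNAi, against 0.753, 0.874, 1.07 and 1.14 TPM in *lox5b* RNAi (log2 fold change 0.80, SE 0.22, adjusted p = 0.029, limma). Its transcript is paired with a further gene ID, so its value is uncertain. The call of SMESG000003230.1 was lost without *hox3a* replicate 1 or 2 or *lox5b* replicate 1, 2 or 3 (adjusted p = 0.086, 0.0837, 0.0759, 0.0654 and 0.0512, limma, 0.00452 to 0.0992 over its 16 alternatives). A Kunitz domain-containing protein (SMESG000038004.1), of a class of protease inhibitors, had 1.44, 1.799, 0.524 and 1.96 TPM in *hox3a* RNAi, against 0, 0.232, 0.332 and 0.376 TPM in *lox5b* RNAi (log2 fold change 1.35, SE 0.31, adjusted p = 0.0139, limma), a low level in both groups. This gene, 1 of the 5 calls of the list, passed the filter of 0.5 TPM through the *hox3a* libraries alone. Its adjusted p is thus not independent of the filter.

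Some of the called genes with a name encode metabolic enzymes, and they are described one by one, since the list for energy metabolism had 1 call among 9 tested genes and a median of 0.06. The gene for Cytochrome P450 2U1 (SMESG000003402.1), which in mammals hydroxylates fatty acids, had 91.9, 45.9, 55.03 and 77.99 TPM in *hox3a* RNAi, against 18.8, 16.4, 25.2 and 31.2 TPM in *lox5b* RNAi (log2 fold change 1.53, SE 0.23, adjusted p = 0.00181, limma). The groups did not overlap, although both ranged about 2-fold within themselves. LACTB (SMESG000000802.1), a serine beta-lactamase-like protein of mitochondria in mammals, had 71.4, 69.1, 74.2 and 65.4 TPM in *hox3a* RNAi, against 25.4, 22.7, 36.2 and 28.8 TPM in *lox5b* RNAi (log2 fold change 1.31, SE 0.12, adjusted p = 0.000104, limma) without overlap between the groups. A pair of genes named Aldehyde dehydrogenase, enzymes that oxidise aldehydes, differed together. SMESG000001723.1 averaged 145 ± 19.9 TPM in *hox3a* RNAi and 85.2 ± 17.3 TPM in *lox5b* RNAi (SD, n = 4, log2 fold change 0.78, SE 0.14, adjusted p = 0.00435, limma). The more abundant SMESG000001708.1 averaged 882 ± 88.7 TPM in *hox3a* RNAi and 577 ± 84.5 TPM in *lox5b* RNAi (SD, n = 4, log2 fold change 0.62, SE 0.11, adjusted p = 0.00389, limma) and was below the cutoff without *hox3a* replicate 1 (0.56) or *lox5b* replicate 1 (0.52). Glutamine synthetase (SMESG000000229.1), which joins ammonia to glutamate, averaged 40.9 ± 2.68 TPM in *hox3a* RNAi and 25.04 ± 1.18 TPM in *lox5b* RNAi (SD, n = 4, log2 fold change 0.70, SE 0.07, adjusted p = 0.000195, limma). Histidine ammonia-lyase (SMESG000002559.1), the first enzyme of histidine breakdown, averaged 11.4 ± 0.457 TPM in *hox3a* RNAi and 6.88 ± 0.399 TPM in *lox5b* RNAi (SD, n = 4, log2 fold change 0.68, SE 0.09, adjusted p = 0.000865, limma). Transketolase (SMESG000000388.1) of the pentose phosphate pathway averaged 134 ± 13.1 TPM in *hox3a* RNAi and 88.7 ± 9.55 TPM in *lox5b* RNAi (SD, n = 4, log2 fold change 0.59, SE 0.09, adjusted p = 0.00193, limma). It was the 1 of 9 tested members of the energy metabolism list that was called, and it fell below the 1.5-fold cutoff without *hox3a* replicate 1 (0.53) or 4 (0.58) or *lox5b* replicate 1 (0.57) or 2 (0.54). Transcripts of the last 3 genes are each paired with a second gene ID.

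The remaining named genes that were higher have various roles. The match to a mitochondrial sodium/calcium exchanger protein (SMESG000022806.1) had 2.88, 3.08, 2.85 and 3.32 TPM in *hox3a* RNAi, against 0, 0.378, 0.136 and 0.461 TPM in *lox5b* RNAi (log2 fold change 2.29, SE 0.22, adjusted p = 0.000128, limma), the largest difference of a gene with a name. Control libraries held 0.126, 0.3798, 0.852 and 0.368 TPM of it, so that *hox3a* RNAi stood apart from both. The exchanger gene passed the filter of 0.5 TPM through the *hox3a* libraries alone, so its adjusted p is not independent of the filter. Alpha-tocopherol transfer protein-like (SMESG000009874.1), of a family that carries vitamin E, had 6.702, 5.42, 5.59 and 9.495 TPM in *hox3a* RNAi, against 2.597, 1.69, 2.001 and 2.68 TPM in *lox5b* RNAi (log2 fold change 1.40, SE 0.19, adjusted p = 0.00103, limma). Slc16a-18 (SMESG000003109.1), of the monocarboxylate transporter family, averaged 13.6 ± 1.17 TPM in *hox3a* RNAi and 7.96 ± 1.27 TPM in *lox5b* RNAi (SD, n = 4, log2 fold change 0.74, SE 0.12, adjusted p = 0.00303, limma). Diphthine--ammonia ligase (SMESG000003033.1), which completes a modified histidine of elongation factor 2, averaged 3.38 ± 0.505 TPM in *hox3a* RNAi and 1.58 ± 0.452 TPM in *lox5b* RNAi (SD, n = 4, log2 fold change 0.91, SE 0.19, adjusted p = 0.00858, limma). GPI ethanolamine phosphate transferase 2 (SMESG000000653.1, 0.67) was no longer called without *hox3a* replicate 1 (0.59, adjusted p = 0.0541) or *lox5b* replicate 1 (0.60, adjusted p = 0.0547) or 2 (0.57), with an adjusted p (limma) of 0.00388 to 0.0681 over its 17 alternatives. Exosome complex component RRP40 (SMESG000002729.1, 0.59), of the RNA-degrading exosome, lost its call without *hox3a* replicate 1 (0.54) or 4 (0.56) or *lox5b* replicate 2 (0.51) or 4 (0.54). ADP-ribosylation factor 1 (SMESG000052762.1), a GTPase of vesicle budding, had overlapping groups with 3.91, 6.704, 4.71 and 5.999 TPM in *hox3a* RNAi, against 1.42, 5.36, 2.14 and 1.69 TPM in *lox5b* RNAi. Its call (log2 fold change 1.01, adjusted p = 0.0474, limma) was kept without *lox5b* replicate 2 and lost without any other single library, where the adjusted p lay between 0.0542 and 0.128 (0.0026 to 0.128 over its 17 alternatives).

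**Figure D4:**
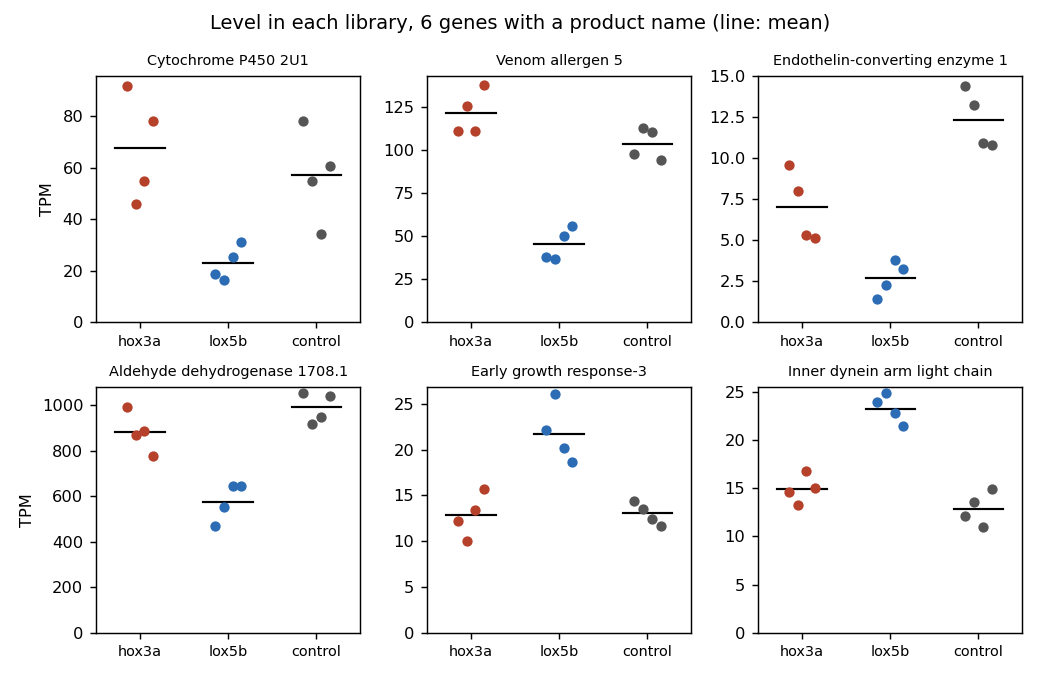
Level in every library (TPM, axes start at 0) of 6 genes with a product name, in *hox3a* RNAi (red), *lox5b* RNAi (blue) and control RNAi (grey), with a line at each mean. The first 4 are higher in every *hox3a* library than in any *lox5b* library, and Early growth response-3 and the inner dynein arm light chain are lower in every one.

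A product name was at hand for 7 genes that were lower in *hox3a* RNAi, and for each the groups did not overlap. Early growth response-3 (SMESG000000959.1), a zinc finger transcription factor of the immediate early class, had 12.2, 9.99, 13.4 and 15.7 TPM in *hox3a* RNAi, against 22.1, 26.1, 20.1 and 18.6 TPM in *lox5b* RNAi (log2 fold change -0.75, SE 0.14, adjusted p = 0.00566, limma), with 14.4, 13.6, 12.5 and 11.7 TPM in control RNAi. It was the 1 of 15 tested genes of the transcription factor list that was called. An Ionotropic receptor (SMESG000002556.1), of a family of ligand-gated channels that sense chemicals in insects, had 47.4, 55.7, 61.4 and 49.5 TPM in *hox3a* RNAi, against 90.9, 80.97, 77.2 and 76.8 TPM in *lox5b* RNAi (log2 fold change -0.61, SE 0.09, adjusted p = 0.0018, limma). It was the 1 called member of 21 tested neuropeptide and transmitter receptors, whose median was -0.05. Its call was lost below 1.5-fold without *hox3a* replicate 1 (-0.55) or 4 (-0.57) or *lox5b* replicate 1 (-0.55), and its transcript is paired with a second gene ID. The match to the RING-H2 protein RHA4a of *Arabidopsis* (SMESG000002176.1), a likely ubiquitin ligase, averaged 76.4 ± 8.51 TPM in *hox3a* RNAi and 134 ± 19.3 TPM in *lox5b* RNAi (SD, n = 4, log2 fold change -0.80, SE 0.11, adjusted p = 0.00101, limma). A protein with ankyrin repeats and a protein kinase domain (SMESG000002943.1) averaged 71.4 ± 5.67 TPM in *hox3a* RNAi and 120.1 ± 12.3 TPM in *lox5b* RNAi (SD, n = 4, log2 fold change -0.74, SE 0.09, adjusted p = 0.000341, limma). The matches to the human open reading frame C2orf73 (SMESG000000761.1, -0.68) and to KIAA1549L (SMESG000001495.1, -0.61) have no function that is well known. KIAA1549L, whose transcript is paired with a second gene ID, was not called without *hox3a* replicate 1 (-0.53) or 4 (-0.58) or *lox5b* replicate 2 (-0.54).

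Genes of cilia, the motile and sensory hairs that carry a planarian over the substrate on its ventral epidermis, were the list with the lowest median, -0.44 over 10 tested members, beside 0.01 over all genes. Of the 10, 9 were below 0, and 6 had an adjusted p under 0.05 and lower values in *hox3a* RNAi (limma, 4 to 8 when 1 library was left out). Among all 15115 tested genes 1448 did so. Only 1 of the 10 also reached 1.5-fold and was called, against 2.48% of all genes. That gene, the axonemal Inner dynein arm light chain (SMESG000001266.1), had 14.6, 13.3, 16.8 and 15.04 TPM in *hox3a* RNAi, against 23.9, 24.9, 22.8 and 21.5 TPM in *lox5b* RNAi (log2 fold change -0.63, SE 0.09, adjusted p = 0.00145, limma) and was at -0.57 without *hox3a* replicate 2, below the cutoff. The most abundant, Parkin coregulated gene protein-like protein (SMESG000000577.1), an axonemal protein in other animals, had 232, 247, 279 and 272 TPM in *hox3a* RNAi, against 391, 423, 354 and 353 TPM in *lox5b* RNAi (log2 fold change -0.56, SE 0.08, adjusted p = 0.00128, limma), without overlap. Tectonic-2 (SMESG000002053.1) and B9 domain-containing protein 2 (SMESG000000764.1), both of the gate at the base of the cilium, had log2 fold changes of -0.58 and -0.52 (adjusted p = 0.0114 and 0.0123, limma). Intraflagellar transport protein 140 (SMESG000001316.1) was at -0.39 (adjusted p = 0.019, limma). Intraflagellar transport protein 46 (SMESG000000122.1, -0.30) and the ciliary Dynein intermediate chain 2 (SMESG000001830.1, -0.28) did not pass the test. Summed over the 11 genes of the list, the level was 436 to 521 TPM in the *hox3a* libraries, 619 to 745 TPM in the *lox5b* libraries and 433 to 516 TPM in the control libraries. These sums rest largely on SMESG000000577.1, with 232 to 279 TPM in the *hox3a* and 353 to 423 TPM in the *lox5b* libraries. The *hox3a* sums thus overlapped control, and every *lox5b* sum lay above both. In whole animals, a difference in the number of cells of a type and in RNA per cell cannot be told apart.

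Other lists showed few or no calls. Muscle and contraction had 0 calls among 11 tested genes and a median of -0.06, and its summed level was 3177 to 3487 TPM in *hox3a* RNAi, 3409 to 3585 TPM in *lox5b* RNAi and 3017 to 3209 TPM in control RNAi. Troponin i (SMESG000002071.1, -0.09) and Tropomyosin-2 (SMESG000000190.1, -0.02) of the thin filament did not pass the test, and Transgelin (SMESG000000987.1), an actin-binding protein of smooth muscle in vertebrates, was at 0.31 (adjusted p = 0.022, limma), below the fold cutoff. At an unadjusted p under 0.05, 4 of the 11 muscle genes differed. There were also 0 calls among 25 genes of the ubiquitin system, 16 ion channels, 14 TRAF proteins, 14 genes of cell adhesion and matrix, 12 of Wnt, Hedgehog, TGF-beta and axon guidance signaling, 12 of the synapse, 11 of mitochondrial translation, 9 of redox and stress and 5 of transposable elements. Lists were set by product name. The RING-H2 gene SMESG000002176.1 and the Ionotropic receptor SMESG000002556.1, both called lower, are not in the ubiquitin and ion channel lists. The medians of these 9 lists lay between -0.09 and 0.08, and 27 of their 118 genes had an unadjusted p under 0.05. The share of all tested genes with such a p is not given here. Neither this count nor that of the muscle genes can therefore be read as an excess. ADP-ribosylation factor 1 was the 1 call among 14 genes of the secretory pathway, whose median was 0.13.

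Effector candidates for fission, which the study cloned from genes that changed in these same libraries against control, are not independent of them. Of the 24, 23 were tested, with *tdg* below the filter, and 3 were called, all higher in *hox3a* RNAi, against 3.22% of all genes. The median over the 23 was 0.31. The 3 candidates tied to *lox5b* had log2 fold changes of 0.58 (*samcp*, SMESG000058865.1), 0.55 (*sox5*, SMESG000050484.1) and 0.54 (*znf816*, SMESG000060422.1). *samcp*, which encodes a sterile alpha motif protein, had 27.7, 25.7, 21.3 and 18.2 TPM in *hox3a* RNAi, against 13.2, 11.9, 16.7 and 19.8 TPM in *lox5b* RNAi, with 1 library of each group overlapping and an adjusted p of 0.0365 (limma), and lay just under the 1.5-fold cutoff of 0.58. With a pseudocount of 0.1 (0.60) and without *hox3a* replicate 4 or *lox5b* replicate 4 it was called (0.69 and 0.71). *sox5*, an SRY-box transcription factor, had 7.08, 6.58, 3.96 and 5.22 TPM in *hox3a* RNAi, against 2.49, 2.88, 4.69 and 5.26 TPM in *lox5b* RNAi (adjusted p = 0.139, limma). For the zinc finger gene *znf816* the values were 3.42, 3.04, 1.52 and 2.32 TPM in *hox3a* RNAi, against 0.872, 1.14, 2.37 and 2.22 TPM in *lox5b* RNAi (adjusted p = 0.217, limma). In both, replicates 3 and 4 of the groups overlapped.

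None of the 4 candidates tied to *hox3a* passed the test, with adjusted p-values (limma) of 0.909, 0.567, 0.942 and 0.993 for *ca7*, *ctbp2*, *gfm2* and *dd25334*. *ca7* (SMESG000017171.1), a carbonic anhydrase, had 5.24, 4.53, 2.78 and 2.78 TPM in *hox3a* RNAi, against 2.97, 4.27, 3.07 and 5.52 TPM in *lox5b* RNAi (log2 fold change -0.05, SE 0.23). *ctbp2* (SMESG000031097.1), a transcriptional corepressor, was at -0.25 (SE 0.26), *gfm2* (SMESG000000046.1), a mitochondrial elongation factor, at 0.03 (SE 0.24) and *dd25334* (SMESG000022810.1) at 0.00 (SE 0.19). The transcript of *gfm2* is also paired with SMESG000000041.1 (log2 fold change -0.12, adjusted p = 0.562, limma), so the gene ID behind its value is uncertain. All 4 had lower means in both groups than in control RNAi, and *ca7* averaged 3.83 ± 1.25 TPM in *hox3a* RNAi and 3.96 ± 1.198 TPM in *lox5b* RNAi, against 8.07 ± 0.673 TPM in control RNAi (SD, n = 4). *gm2a* (SMESG000000730.1), the candidate of *hox1*, encodes the ganglioside GM2 activator of lysosomes and was called higher, with 1556, 1219, 1273 and 1120.2 TPM in *hox3a* RNAi, against 810.4, 609, 1014 and 923 TPM in *lox5b* RNAi (log2 fold change 0.64, SE 0.15, adjusted p = 0.0149, limma). It fell below the cutoff without *hox3a* replicate 1 (0.54) or *lox5b* replicate 2 (0.49).

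The candidates tied to *post2b* include 7 markers of anchor cells, epithelial cells of the adhesive organ along the body margin, and all 7 had positive log2 fold changes, with a median of 0.46. *plg1* (SMESG000018456.1), a match to plasminogen, had 41.1, 60.003, 57.1 and 79.1 TPM in *hox3a* RNAi, against 30.4, 39.4, 33.4 and 26.4 TPM in *lox5b* RNAi (log2 fold change 0.84, SE 0.18, adjusted p = 0.00953, limma). *dd13286* (SMESG000074454.1) had 13.99, 19.5, 20.5 and 21.98 TPM in *hox3a* RNAi, against 9.41, 13.2, 11.3 and 9.202 TPM in *lox5b* RNAi (log2 fold change 0.79, SE 0.15, adjusted p = 0.00688, limma). These 2 were called. *lmnAC* (SMESG000046289.1), a lamin of the nuclear envelope, had 213, 294, 303 and 334 TPM in *hox3a* RNAi, against 203, 224, 204 and 181 TPM in *lox5b* RNAi (log2 fold change 0.48, SE 0.12, adjusted p = 0.0234, limma), and *ifb* (SMESG000062826.1), an intermediate filament protein, had 239, 323, 312 and 348 TPM in *hox3a* RNAi, against 213, 245, 225 and 197 TPM in *lox5b* RNAi (log2 fold change 0.46, SE 0.11, adjusted p = 0.0172, limma). Both passed the test below 1.5-fold, and in both 1 library, *hox3a* replicate 1, lay inside the *lox5b* range, without which *lmnAC* was called (0.61). *post2a*, *dd20390* and *barHl2* (0.37, 0.31 and 0.24) did not pass. The 7 markers summed to 531 to 817 TPM in *hox3a* RNAi, 433 to 549 TPM in *lox5b* RNAi and 575 to 729 TPM in control RNAi, so that 1 of the *hox3a* libraries overlapped *lox5b*. Viscid gland cells lie in the parenchyme and release the adhesive secretion, and none of their 3 markers was called. *rcn-1* (SMESG000034805.1), a calcium-binding protein of the endoplasmic reticulum, averaged 986 ± 100.3 TPM in *hox3a* RNAi and 966 ± 96.3 TPM in *lox5b* RNAi (SD, n = 4, log2 fold change 0.03), *fer3l2* (SMESG000019274.1), a bHLH transcription factor, was at 0.03, and *syt1* (SMESG000059797.1), a synaptotagmin, at 0.52 (SE 0.18, adjusted p = 0.0669, limma). *syt1* was called without *lox5b* replicate 2 (0.67). The study also saw *rcn-1* in cells beside the pharynx, so its level in whole animals is not that of viscid gland cells alone. The other tested candidates of *post2b*, *ncam2*, *zmym2*, *nipbl*, *fktn* and *eve*, lay between -0.20 and 0.33 and did not pass.

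**Figure D5:**
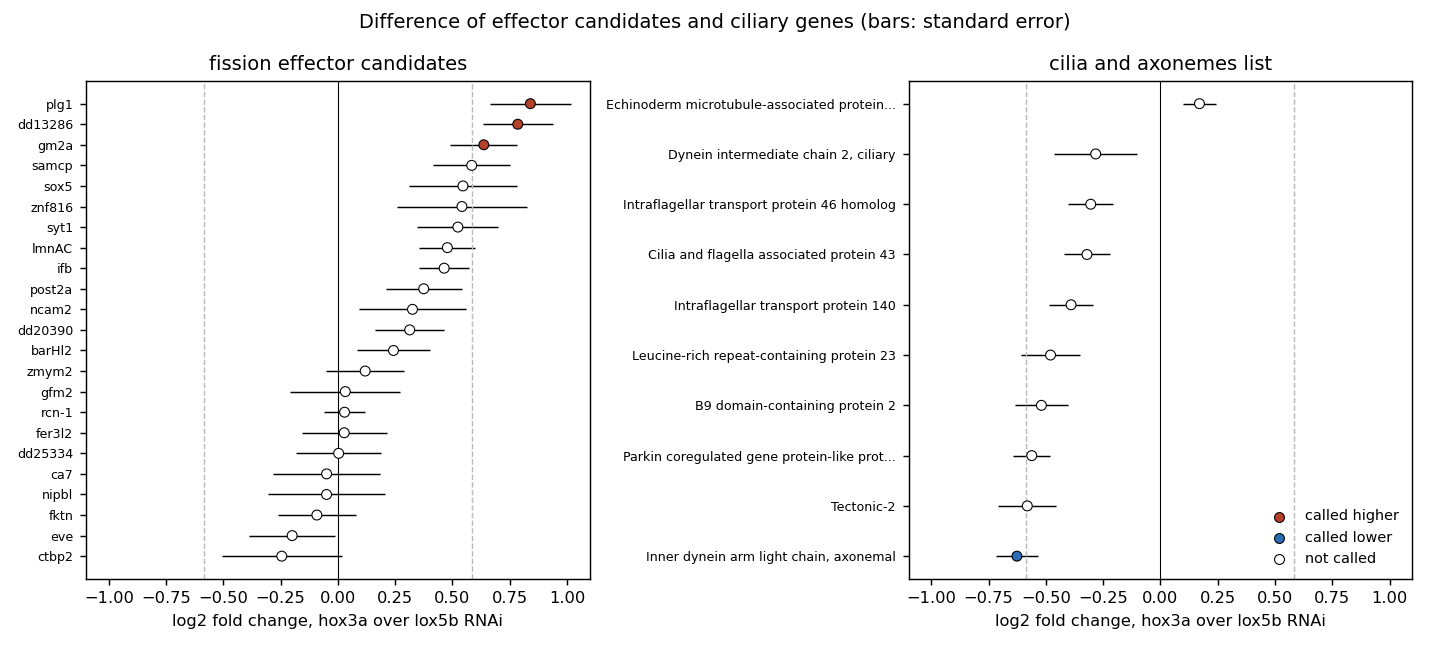
Log2 fold change, *hox3a* over *lox5b* RNAi, with its standard error, of the 23 tested effector candidates (left) and of the 10 tested genes of the cilia list (right), with dashed lines at 1.5-fold. On the left 3 genes are called higher (red, *plg1*, *dd13286* and *gm2a*), and on the right 9 of 10 genes lie below 0 with 1 called lower (blue).

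Of the 13 Hox genes of the genome, 2 are paired with a gene ID here. *post2a* (SMESG000054107.1), a posterior Hox gene, had 8.08, 12.1, 11.3 and 13.7 TPM in *hox3a* RNAi, against 8.41, 9.66, 9.52 and 6.56 TPM in *lox5b* RNAi (log2 fold change 0.37, SE 0.17, adjusted p = 0.151, limma), with overlapping groups. *post1* (SMESG000003389.1), another posterior Hox gene, had 0.858, 0.321, 1.87 and 0.269 TPM in *hox3a* RNAi, against 0.396, 0, 0.297 and 0.504 TPM in *lox5b* RNAi, below the filter, and was not tested.

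A pair of other Hox RNAi groups, *hox3b* and *hox1*, shares no library with these 8 and was fitted in the same way. There 302 of 15208 genes were called (1.99%), 234 higher in *hox3b* RNAi (1.54%) and 68 lower (0.447%). Of the 486 genes higher in *hox3a* than in *lox5b* RNAi, 474 were tested there. Of these 92 were called higher in *hox3b* than in *hox1* RNAi (19.4%) and 16 lower (3.38%). Of the 375 lower genes, 373 were tested, and 8 were called lower (2.14%) and 2 higher (0.536%). The large differences split by run. All 6 called genes from SMESG000043388.1 to SMESG000043423.1 were also higher in *hox3b* than in *hox1* RNAi, by 2.41 to 3.32, and SMESG000043411.1 had 289, 322, 388 and 321 TPM in *hox3b* RNAi, against 41.6, 48.9, 66.9 and 66.4 TPM in *hox1* RNAi. Of the 6 lower genes of that run, 1 was called lower there, 0 were called higher, and 4 had an unadjusted p under 0.05 (limma). In the abundant run, SMESG000035312.1 was called in the same direction (log2 fold change 1.26, adjusted p = 2.67e-06, limma), and 7 of the 11 genes were called the other way, such as SMESG000035323.1 with 281, 384, 509.6 and 343 TPM in *hox3b* RNAi, against 929.9, 490.2, 1069.7 and 907 TPM in *hox1* RNAi (log2 fold change -1.14, adjusted p = 0.00957, limma). Cytochrome P450 2U1 (SMESG000003402.1) was also lower in *hox3b* than in *hox1* RNAi (-1.15, adjusted p = 5.31e-06, limma). *gm2a*, the candidate of *hox1*, was higher (1.49, adjusted p = 8.69e-07, limma). None of the 9 called genes of the run around SMESG000016778.1 and none of the 7 of the run from SMESG000037144.1 was called in these libraries (limma), and 5 of the 9 and 2 of the 7 had an unadjusted p under 0.05 there. The share of all genes with such a p in these libraries is not given here. These counts, and the 4 of the 6 lower genes above, cannot be set against it.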

How the data were processed

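Libraries of poly(A) RNA from pools of 3 whole animals were made with a stranded kit and sequenced by the authors as single reads. Reads were demultiplexed with bcl2fastq (version 2.20, per the labels), mapped to smed_dd_g4 by STAR and counted over the Smes_hv_v1 gene models, and the authors tested the counts with edgeR. The values used here are TPM as deposited by the authors, which sum to 1000000 in each of 24 libraries. How the authors computed TPM from counts is not given in the sources used here. Because the depth is not recorded in TPM, counting error is unknown, and the spread between the 4 libraries of a group is the measure of precision. Reads that mapped to several places were limited by the aligner settings, so near-identical genes are uncertain.

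The test took genes at 0.5 TPM or more in 4 or more of the 8 libraries, on log2(TPM + 0.5) with limma 3.58.1 in R 4.3.3 (8 libraries, group term, intensity trend, two-sided, Benjamini-Hochberg over all tested genes). A pseudocount understates the change of low genes. Fold changes are *hox3a* over *lox5b* RNAi, and *hox3b* over *hox1* RNAi was fitted alike. Called genes had 1.5-fold and an adjusted p under 0.05. The fit was tested on simulated data. Genes were named by rule: all effector candidates and paired Hox genes, then, among called genes with a mean of at least 1 TPM and no overlap, the 12 largest with a product name and the 5 largest whatever the name in each direction, and up to 4 called members of each of 16 lists. Runs of gene numbers and further names were added after seeing the values. Members, lists and tests were chosen with earlier results of these data known. Product names come from the part of the supplementary tables used here. No gene set was tested. Alternatives were pseudocounts of 0.1 and 1, no filter, a filter at a mean of 2 TPM, rescaling, no trend, 1 model for all 24 libraries, a block for the replicate number, a stricter cutoff and leaving out each library. Silencing of the targets was not analysed here.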

Additional observations from a re-analysis of the deposited data

Results flagged for a closer look

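In 13 of the 273 groups of 4 libraries examined (4.76%, 3 groups for each of 91 genes), 1 library lay far from the other 3, by a gap that, as a share of the group's whole range, passed Dixon's 95% critical value. Chance alone gives about 1 in 20. Of these, 5 were *hox3a* replicate 4, which was the highest *hox3a* library for SMESG000043391.1 (gap 0.858 of the range), SMESG000043393.1 (0.886), SMESG000043422.1 (0.954), SMESG000043423.1 (0.910) and SMESG000055624.1 (0.835). The first 4 belong to 1 run of gene numbers and are not independent of each other. Without that library their log2 fold changes were 4.80, 5.36, 4.77, 5.96 and 4.82, and every one was still called.

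The other 8 were in single genes. *hox3a* replicate 1 was high for SMESG000037146.1 (0.935, at 7.32 TPM), and *hox3a* replicate 3 low for *gfm2* (0.872, at 1.13 TPM). *lox5b* replicate 1 was high for SMESG000016777.1 (0.910, at 79.1 TPM) and low for Glutamine synthetase, SMESG000000229.1 (0.852, at 23.3 TPM). *lox5b* replicate 2 was low for SMESG000037145.1 (0.915, at 15.9 TPM), and *lox5b* replicate 3 high for SMESG000037149.1 (0.926, at 20.4 TPM). Control replicate 1 was high for SMESG000000653.1 (0.880, at 10.4 TPM) and low for SMESG000038731.1 (0.925, at 8.72 TPM).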

How the results depend on the processing

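Of the 861 calls, the pseudocount of 0.1 kept 843, the pseudocount of 1 kept 784, no filter on low values 789, the filter at a mean of 2 TPM 785, rescaling 853, no trend 778 and all 24 libraries in the model 855, each in the same direction. At 2-fold and an adjusted p under 0.01 there were 181 calls, 145 higher and 36 lower, and in *hox3b* against *hox1* RNAi 98 calls, 90 higher and 8 lower, with 32 calls shared between both pairs in place of 100. This follows from the cutoff itself. Leaving out 1 library gave 614 to 1127 calls, 338 to 614 of them higher and 271 to 513 lower, with 614 without *hox3a* replicate 1 and 1127 without *lox5b* replicate 4. In *hox3b* against *hox1* RNAi it gave 224 to 326 calls, 171 to 263 higher and 44 to 70 lower, and the lowest, 44 against 68, came without *hox3b* replicate 3. Same-numbered libraries of the groups did not deviate together (r of -0.28, -0.06, -0.14 and -0.25, and 0 of 4 *hox3a* libraries matched their own number best). The labels do not say whether same-numbered libraries were handled together, so whether the numbers pair the samples is unknown. With the replicate number as a block 312 genes were called higher in place of 486 and 303 lower. After rescaling across all groups, an alternative chosen after seeing the data, the control libraries lay above all *hox3a* libraries in 71 of the higher genes and 11 of the lower genes, in place of 108 and 42, and below all *hox3a* libraries in 128 of the higher genes, in place of 100.

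There were 6 effector candidates with differences near 0 that changed sign when 1 library was left out, with log2 fold changes of -0.19 to 0.18 for *gfm2*, -0.024 to 0.091 for *rcn-1*, -0.10 to 0.16 for *fer3l2*, -0.051 to 0.087 for *dd25334*, -0.20 to 0.11 for *ca7* and -0.23 to 0.16 for *nipbl*. No other of the 89 tested genes changed sign under any alternative in which it was tested. The exchanger gene SMESG000022806.1 and the Kunitz gene SMESG000038004.1 fell below the filter when any 1 *hox3a* library was left out. They thus have no such check. Of the 89 genes SMESG000052762.1 was also not called without the filter or the trend, SMESG000035312.1 without the trend and RRP40 at a pseudocount of 1. With the replicate number as a block 6 of them were not called, SMESG000003235.1 (adjusted p = 0.0567, limma), SMESG000037147.1 (0.0508), SMESG000003230.1 (0.0992), SMESG000000653.1 (0.0681), RRP40 (0.0614) and SMESG000016779.1 (0.0567). The unknown depth limits all values near 0.5 TPM.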
